A study of Mus musculus with 6 samples.

Results

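The mitochondrial ribosomal protein genes are the nuclear genes that encode the protein part of the mitochondrial ribosome. They were taken as the rows whose symbol is Mrpl or Mrps followed by a number and, in places, a letter from a to c, which gave 78 of the 18059 genes in the tables. By symbol, 49 belonged to the large subunit (Mrpl) and 29 to the small subunit (Mrps). The cells were primary cardiac fibroblasts, the connective tissue cells of the heart, isolated from C57BL/6 mice at 1 to 2 weeks of age and grown with 15% serum. PDGF-DD cells were exposed for 12 hours to PDGF-DD, the active form of platelet-derived growth factor D, and control cells to saline, with 3 libraries in each group. The labels give the dose as 20 µM, a unit that could not be checked. The protocols say that all cells came from mice with a global knockout of PDGF-D, whereas the genotype labels read PDGF-D -/- for the PDGF-DD samples and control for the control samples. If the genotype labels hold, genotype and treatment cannot be told apart.

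Mitochondrial ribosomes translate the few messages that mitochondrial DNA still encodes, all of them for subunits of the respiratory chain and ATP synthase. Their ribosomal RNAs come from mitochondrial DNA, while every ribosomal protein is made in the cytosol from nuclear messages and imported. Part of these proteins have bacterial homologues, and the rest were added during the evolution of mitochondria and line the outside of the particle. The small subunit reads the message, and the large subunit joins the amino acids and is anchored at the inner membrane where its products are inserted.

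The libraries held between 21221114 and 21371829 estimated read counts. Members took 0.232%, 0.244% and 0.239% of the counts in the PDGF-DD libraries, against 0.232%, 0.206% and 0.208% in the control libraries. The high control value is that of control replicate 1, which stood apart from the other control libraries: its chi-square per degree of freedom was 5.11 and 5.71 against them, compared with 2.48 between them and 1.90 to 2.74 within the PDGF-DD group. It exceeded both other control libraries in 61 of the 78 members, compared with 32.1% of all tested genes. Reads of Pdgfd were present in all libraries, with 69 to 82 counts in the PDGF-DD group and 91 to 118 in the control group. Nothing in the labels ties a library to its own culture or mouse, so the spread behind each p-value is that of the libraries and may be technical only.

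Mitochondrial ribosomal protein genes were higher in PDGF-DD cells or did not pass the test, and none was lower. All 78 passed the filter on low counts. Of these, 29 rose (quasi-likelihood F test of edgeR, with p adjusted over all tested genes by Benjamini-Hochberg and held to 0.05), which is 37.2% of them, against a background of 19.1% of 13270 tested genes called higher and 17.4% called lower. The 0 that fell was also 0 at an unadjusted p under 0.05 and 0 in DESeq2, in which 23 members rose against a background of 15.4% higher and 13% lower. The rises were small, from 11.7% to 35.8%, and the median log2 fold change over all members was 0.14, against -0.01 over all tested genes. In 31 members every PDGF-DD library was above every control library, and in none was every one below, against a background of 23.6% and 23.5% of tested genes. In bulk libraries of this kind, a change in the share of cells of a type and a change in RNA per cell cannot be told apart. Without control replicate 1, 43 members rose, against a background of 19.8% higher and 17.8% lower.

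**Figure D1:**
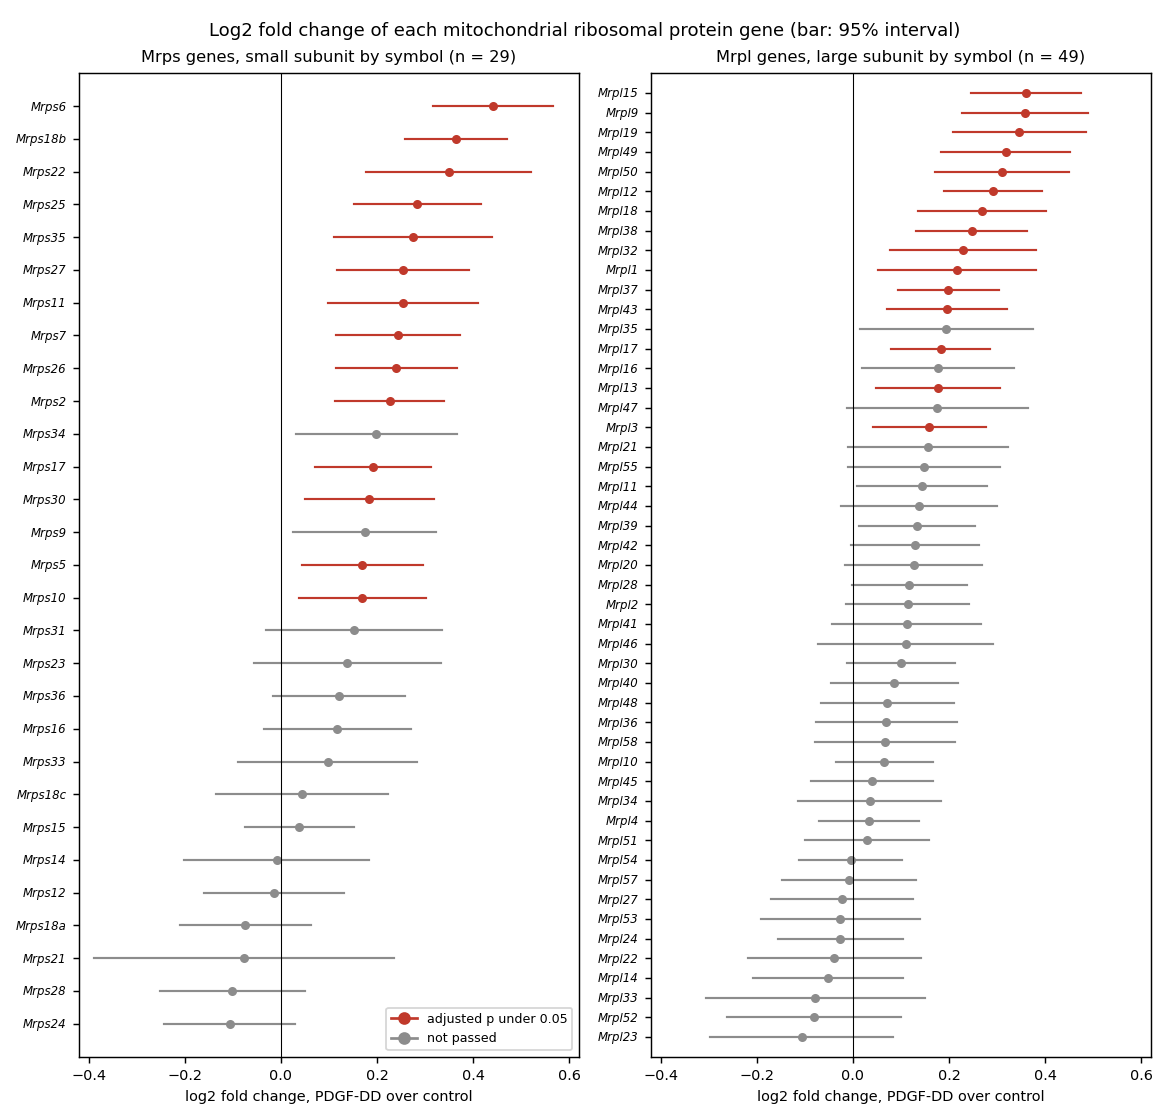
Log2 fold change (PDGF-DD over control, horizontal axis) of each of the 29 Mrps and 49 Mrpl genes, with points for the edgeR estimate and bars for its 95% interval; red marks an adjusted p under 0.05. All 29 red points lie right of 0, and the grey points reach from -0.11 for Mrps24 to 0.20 for Mrps34.

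Some members share exon bases with a neighbour, and the strand setting of the counting is not given in the sources used here. In the GENCODE M21 annotation (GRCm38), 16 of the 78 shared exon bases with another protein-coding gene, 15 on the opposite strand and 1, Mrps6, on the same strand. Those 16 include 10 of the 29 that rose. Among the other 62 members 19 rose and 0 fell, with a median log2 fold change of 0.12, against a background of 19.1% of tested genes higher and 17.4% lower. Members that share exon bases were thus called more often than the rest, a difference that was not tested. Some neighbours of called members also rose in edgeR. Mtbp shares 330 bases with Mrpl13 (log2 fold change 0.36), Twnk 385 with Mrpl43 (0.32) and Tcp1 17 with Mrpl18 (0.20). Slc5a3, beside Mrps6, rose, and Nr2c2, beside Mrps25, fell. Gcfc2, Syvn1, Gga3 and Mif4gd did not pass, and Oaz3, B430218F22Rik and Gm49711 had no test result. Processed pseudogenes of ribosomal protein genes may likewise share reads with their parents, and this was not tested.

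In the small subunit 14 of 29 members rose (48.3%), with a median log2 fold change of 0.17, and in the large subunit 15 of 49 rose (30.6%), with a median of 0.13. The difference between the 2 subunits was not tested. Their ranges overlapped almost entirely, from -0.11 to 0.44 in the small and from -0.11 to 0.36 in the large subunit. Without control replicate 1, 19 small and 24 large subunit members rose. Over all tested genes 19.1% were called higher, and 19.8% without control replicate 1. The subunit named in the symbol is not always that of the protein: in the structures of the mammalian ribosome the products of Mrps18a and Mrps30 sit in the large subunit, and that of Mrps36 is absent and is known as a part of the alpha-ketoglutarate dehydrogenase complex. Sorted by structure, 13 of 26 small and 16 of 51 large subunit members rose, with medians of 0.17 and 0.13.

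The summed level of the 29 Mrps genes was 824, 873 and 853 CPM (counts scaled to library size with TMM factors) in the PDGF-DD libraries, against 823, 734 and 726 CPM in the control libraries. The lowest PDGF-DD library and control replicate 1 were nearly equal, at 823.64 and 823.23 CPM, and the groups did not overlap. That separation depends on Mrps6, which shares exon bases with another gene on the same strand. Mrps6 stood at 49.4 CPM in PDGF-DD replicate 1 and at 42.5 CPM in control replicate 1. This gap is wider than that between the sums, so without Mrps6 the groups would overlap. The 49 Mrpl genes summed to 1491, 1563 and 1523 CPM in the PDGF-DD libraries, against 1501, 1342 and 1364 CPM in the control libraries. Here control replicate 1 lay above PDGF-DD replicate 1, so the groups overlapped. The ratio of the small to the large subunit sum was 0.552, 0.558 and 0.560 in the PDGF-DD libraries, against 0.549, 0.547 and 0.532 in the control libraries. These groups did not overlap, but the ratio includes Mrps6 as well and was not computed without it. No shift between the subunits can be read from it.

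**Figure D2:**
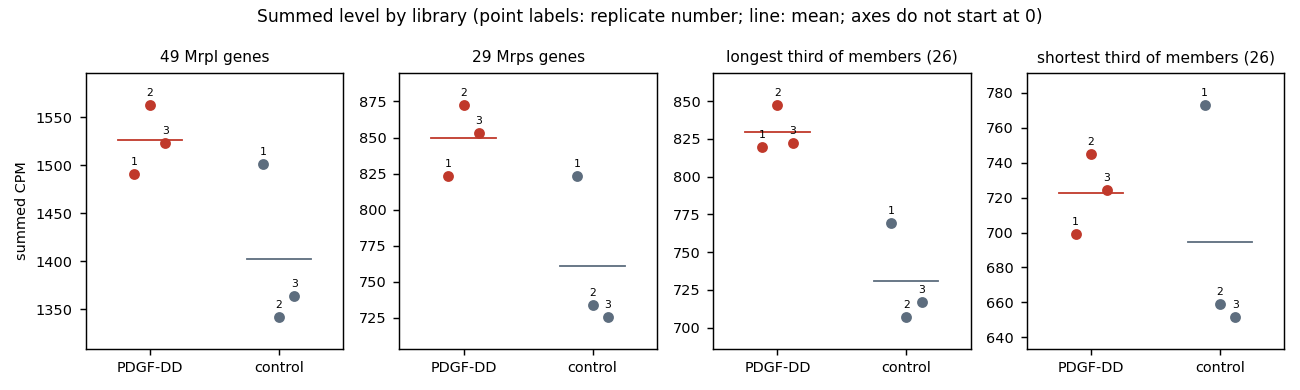
Summed CPM (vertical axis, not starting at 0) of the Mrpl genes, the Mrps genes, and the 26 members with the longest and the 26 with the shortest transcripts in each library; points carry the replicate number and lines mark group means. Control replicate 1 is the highest control library in every panel and, among the shortest members, the highest of all libraries at 773 CPM.

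By origin, 17 of 46 members with a bacterial homologue rose (37%, median log2 fold change 0.15), and 12 of 31 members specific to mitochondria rose (38.7%, median 0.14). The background was 19.1% of all tested genes called higher, and 19.8% without control replicate 1. The 10 mitochondria-specific proteins of the small subunit had the highest median, 0.25, with 6 of 10 called and log2 fold changes between 0.10 and 0.36. The 21 mitochondria-specific proteins of the large subunit had a median of 0.11, with 6 called. Members with a bacterial homologue had medians of 0.14 in the small subunit (7 of 16 called) and 0.15 in the large subunit (10 of 30 called). Without control replicate 1, 10 of 10 mitochondria-specific and 8 of 16 bacterial-type members of the small subunit rose, and 7 of 21 and 17 of 30 in the large subunit. These groups were formed from the known structures and the differences between them were not tested.

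Mrps6 (Entrez gene 121022), the homologue of a bacterial protein on the platform of the small subunit, had the largest rise. It stood at 49.4, 54.5 and 53.1 CPM in the PDGF-DD libraries, against 42.5, 35.5 and 37.6 CPM in the control libraries. The groups did not overlap, and the log2 fold change was 0.44 (SE 0.06, edgeR adjusted p = 3.66e-06). Its value is uncertain, because 159 of its exon bases are shared on the same strand with Slc5a3, the gene of an inositol transporter. Another 1 of its same-strand neighbours, Gm49711, shares 305 exon bases with it and had no test result. Slc5a3 averaged 39.8 CPM in PDGF-DD and 21.4 CPM in control cells, a log2 difference of 0.89 with an adjusted p of 1.4e-11 in edgeR.

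Mrps18b (Entrez gene 66973), a mitochondria-specific small subunit protein, had the smallest p of all members. Its level was 53.5, 56.4 and 56.7 CPM in the PDGF-DD libraries, against 44.8, 40.5 and 44.1 CPM in the control libraries. Every PDGF-DD library exceeded every control library, with a log2 fold change of 0.36 (SE 0.05, adjusted p in edgeR = 3.13e-06). Its paralogues did not pass. Mrps18a, whose product sits in the large subunit, was at 26.5, 27.99 and 27.4 CPM in PDGF-DD and 31.3, 28.7 and 26.1 CPM in control libraries (log2 fold change -0.07, 95% interval -0.21 to 0.06, edgeR adjusted p = 0.41). Mrps18c, which takes the place of the bacterial S18 protein, was at 15.1, 15.6 and 15.6 CPM in PDGF-DD and 17.1, 15.1 and 12.7 CPM in control libraries. For both paralogues the groups overlapped, and the 95% interval of Mrps18c, from -0.14 to 0.22, lay below the estimate for Mrps18b.

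Mrps22, a mitochondria-specific small subunit protein whose human variants cause mitochondrial disease, stood at 17.0, 18.7 and 20.6 CPM in the PDGF-DD libraries, against 14.5, 16.3 and 13.4 CPM in the control libraries. The groups came close without overlapping (log2 fold change 0.35 with SE 0.08, adjusted p = 0.00165 in edgeR). Mrps25, also specific to mitochondria, stood at 35.6, 36.6 and 36.0 CPM in PDGF-DD, against 33.1, 28.2 and 27.6 CPM in control libraries. All PDGF-DD values were higher, with a log2 fold change of 0.28 (SE 0.06). It shares 3533 exon bases on the opposite strand with Nr2c2, a nuclear receptor gene that fell by 0.34 on the log2 scale. Mrps27, Mrps26, Mrps7, Mrps2, Mrps35 and Mrps11 also rose, with log2 fold changes between 0.23 and 0.28.

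In the large subunit the largest rise was that of Mrpl15 (Entrez gene 27395), a protein with a bacterial homologue. It was at 46.1, 45.9 and 44.1 CPM in the PDGF-DD libraries, against 37.9, 33.0 and 35.1 CPM in the control libraries (log2 fold change 0.36, SE 0.06, adjusted p in edgeR = 1.11e-05). The PDGF-DD libraries lay close together and above every control library. Mrpl9 (Entrez gene 78523), the homologue of a bacterial protein at the base of a protruding stalk, was at 28.2, 29.02 and 29.05 CPM in PDGF-DD and 23.2, 23.2 and 20.9 CPM in control libraries (log2 fold change 0.36 with SE 0.06, adjusted p = 6.69e-05 in edgeR). Mrpl19, also of bacterial type, was at 24.8, 26.2 and 25.6 CPM in PDGF-DD and 18.9, 21.6 and 19.7 CPM in control libraries (log2 fold change 0.35, edgeR adjusted p = 0.000203). Neither gene had overlapping groups. On the opposite strand, Mrpl9 shares 157 exon bases with Oaz3, which had no test result. Mrpl19 shares 1962 exon bases with Gcfc2 on the opposite strand, a gene at 8.42 CPM in PDGF-DD and 8.21 CPM in control cells.

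Mrpl49 and Mrpl50 are specific to mitochondria. Mrpl49 was at 22.7, 23.3 and 23.4 CPM in the PDGF-DD libraries, against 18.3, 19.1 and 18.3 CPM in the control libraries (log2 fold change 0.32, adjusted p in edgeR = 0.000347). Mrpl50 was at 26.1, 27.0 and 28.1 CPM in the PDGF-DD libraries, against 23.9, 21.2 and 20.5 CPM in the control libraries (log2 fold change 0.31, edgeR adjusted p = 0.000704). In both genes all PDGF-DD libraries were the higher ones. Mrpl12 (Entrez gene 56282) encodes the stalk protein that contacts translation factors, and in human cells it has also been reported to bind the mitochondrial RNA polymerase. It was at 59.1, 63.3 and 62.9 CPM in PDGF-DD and 52.4, 48.4 and 50.5 CPM in control libraries (log2 fold change 0.29 with SE 0.05, adjusted p = 3.7e-05 in edgeR).

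Mrpl38, Mrpl18, Mrpl37 and Mrpl17 rose by log2 fold changes of 0.25, 0.27, 0.20 and 0.18 (edgeR adjusted p = 0.000959, 0.00181, 0.00326 and 0.00539) and were called under each of 12 alternatives. Mrps17, Mrpl43, Mrps5, Mrpl1 and Mrps10 were called with log2 fold changes between 0.17 and 0.22. Mrpl32, whose maturation by an inner membrane protease is required for ribosome assembly, was at 24.4, 24.3 and 22.5 CPM in PDGF-DD, against 22.7, 19.2 and 18.9 CPM in control libraries. The lowest PDGF-DD library was below control replicate 1, and the call (log2 fold change 0.23, adjusted p in edgeR = 0.0161) was lost without PDGF-DD replicate 1 (0.0631) and without the second (0.0877) or the third (0.0895) control library. Mrps30, a large subunit protein by structure, was at 27.9, 30.04 and 30.4 CPM in PDGF-DD and 25.3, 24.4 and 28.1 CPM in control libraries (log2 fold change 0.18, edgeR adjusted p = 0.0288). Its groups overlapped, and the call was lost under 6 of 12 alternatives, with adjusted p up to 0.148 without control replicate 2. Mrpl3 and Mrpl13 were the other called members with overlapping groups.

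**Figure D3:**
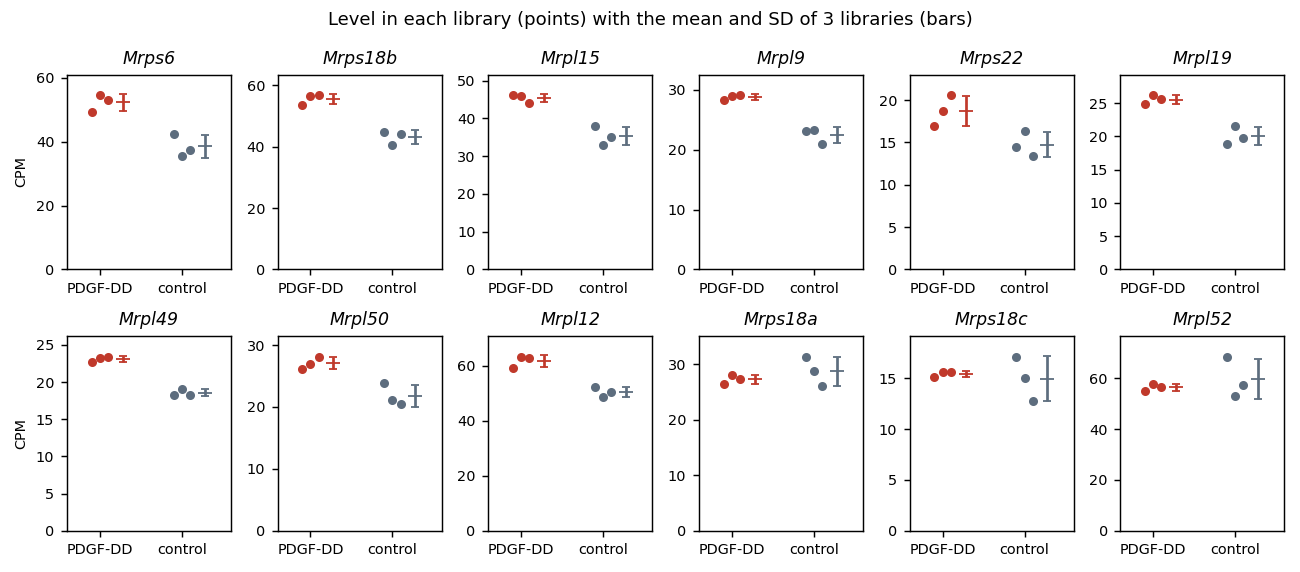
CPM (vertical axis from 0) of 12 members in each library, with points for libraries and bars for the mean and SD of 3 libraries. In the first 9 panels, Mrps6 to Mrpl12, every PDGF-DD library lies above every control library, whereas Mrps18a, Mrps18c and Mrpl52 overlap.

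Of the 49 members that did not pass, 33 had a positive and 16 a negative log2 fold change. The lowest 95% bound among them was -0.39, for Mrps21, and the highest was 0.37, for Mrpl35, so that a p above the threshold does not show equal levels. The lowest estimates were those of Mrps24, Mrpl23 and Mrps28, at -0.11, -0.11 and -0.10. Mrps36 was at 27.5, 28.4 and 27.9 CPM in PDGF-DD and 28.2, 25.5 and 23.3 CPM in control libraries (log2 fold change 0.12, edgeR adjusted p = 0.167), with overlap, and it passed as higher without control replicate 1 (adjusted p = 0.0259).

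Levels per transcript length differed widely between members. On the TPM scale (corrected for transcript length and library size by the authors) the mean over all libraries ranged from 10.5 for Mrpl19 and 12.4 for Mrps25 to 363 for Mrpl52, with a median of 58.2. The 4 most abundant members, Mrpl52, Mrpl54, Mrps21 and Mrpl42, did not pass. Mrpl52, specific to mitochondria, averaged 352 TPM in PDGF-DD and 374 TPM in control cells. It was at 54.8, 57.7 and 56.6 CPM in PDGF-DD and 68.4, 53.0 and 57.4 CPM in control libraries, so that control replicate 1 was the highest of all (log2 fold change -0.08, 95% interval -0.26 to 0.10, adjusted p in edgeR = 0.478). Mrpl54 averaged 190.1 TPM in PDGF-DD and 192 TPM in control cells (log2 fold change -0.00, edgeR adjusted p = 0.952). Mrps21 averaged 183 TPM in PDGF-DD and 193 TPM in control cells, with control replicate 1 at 44.5 CPM and the other libraries between 32.3 and 37.4 CPM. Mrpl42 averaged 153 TPM in PDGF-DD and 141 TPM in control cells and passed as higher without control replicate 1 (adjusted p = 0.0165).

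The log2 fold changes of members went with the length of their transcripts, described here with no test. The length implied by the deposited counts and FPKM values had a median of 1016.5 bases in members, against 2833.5 bases in tested genes for which it could be computed. Of the 26 shortest members (363 to 865 bases) 3 rose (Mrps6, Mrpl32 and Mrpl13), with a median log2 fold change of 0.04. Of the 26 in the middle (889 to 1375 bases) 11 rose, with a median of 0.14, and of the 26 longest (1377 to 6662 bases) 15 rose, with a median of 0.18. All tested genes in the same ranges of length had 9.4%, 23% and 22.9% higher, with medians of -0.02, 0.04 and 0.01. Across the 78 members Spearman's rho between length and log2 fold change was 0.50, and across 11522 genes it was -0.10. The 2 values cover unlike ranges, since lengths of all tested genes reached from 157 to 30633 bases. Over all tested genes the median log2 fold change was -0.03 near 362 bases, 0.04 near 1024 bases and -0.05 near 8192 bases. These values describe genes that share the same libraries and come with no test.

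Control replicate 1 moved with this pattern. The 26 shortest members summed to 699, 745 and 724 CPM in the PDGF-DD libraries, against 773, 659 and 652 CPM in the control libraries. The 26 longest summed to 820, 847 and 822 CPM in the PDGF-DD libraries, against 769, 707 and 717 CPM in the control libraries. The middle 26 summed to 796, 842 and 831 CPM in the PDGF-DD libraries, against 782, 709 and 721 CPM in the control libraries. The groups overlapped among the shortest members and stayed apart among the middle and the longest. Without control replicate 1, 9 of the shortest, 16 of the middle and 18 of the longest members rose, with median log2 fold changes of 0.11, 0.22 and 0.22, and rho across members was 0.41. In that setting all tested genes of the same lengths had 139 of 585, 325 of 1088 and 2003 of 8907 higher. The medians of those genes were 0.06, 0.08 and -0.0003. With all libraries 55 of the 585 had been higher, so short genes outside the members also moved. The cause of the pattern was not tested.

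**Figure D4:**
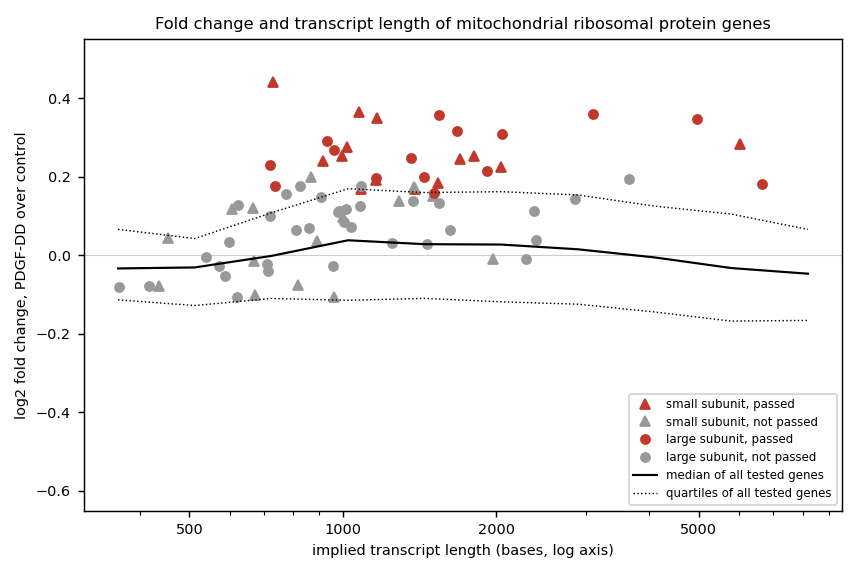
Log2 fold change (PDGF-DD over control) of each member against the implied transcript length in bases (log axis); triangles are small and circles large subunit members, red marks an adjusted p under 0.05, and lines give the median and quartiles of all tested genes by length. The shortest member that passed is Mrpl32 at 719 bases, and the 8 members above 0.30 lie at 731 bases and longer.

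The promoters of members were compared with RefSeq windows (GRCm38.p6, a build other than that of the files) of 300 bases, from 250 before to 50 after the start. Of the 78 members 69 had 75 windows, and Mrpl4, Mrpl13, Mrpl15, Mrpl19, Mrpl38, Mrpl54, Mrps28, Mrps34 and Mrps35 had none. Searched were 6 motifs on both strands: CCGGAAG (a core of ETS factors such as GABP), the 10-letter NRF1 motif in capitals in Mrpl9 (shown with the sequences), the 11-letter YY1 motif in capitals after the start in Mrps27, CACGTG (the E-box of MYC and MAX), CCAAT and TATAAA. The ETS core, CCGGAAG, was in 34.7% of member windows, against 16.4% of windows of tested genes and 8.86% of all windows. The YY1 motif was in 6.67%, against 1.36% and 0.633%, and the NRF1 motif in 4%, against 1.95% and 0.971%. CACGTG was in 9.33% of member windows, against 9.67% and 7.15%, CCAAT in 40%, against 37.5% and 37.4%, and TATAAA in 6.67%, against 7.28% and 13.6%. A window may hold several of them, and a match is a string of letters and no shown binding site. CCGGAAG was found in 8 of 24 members that rose (33.3%) and in 18 of 45 that did not pass (40%), CCAAT in 10 of 24 and 17 of 45, and CACGTG and TATAAA each in 1 of 24 and 4 of 45. The YY1 motif was found in 3 of 24 that rose (12.5%) and 2 of 45 that did not pass (4.44%), and the NRF1 motif in 2 of 24 (8.33%) and 1 of 45 (2.22%). These counts are small and were not tested.

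The bases from 120 before to 30 after the start are shown for 6 members, chosen to set 4 that rose (Mrps6, Mrps18b, Mrpl9 and Mrps27) beside 2 that did not pass (Mrps18a and Mrpl52). Capitals mark CCGGAAG or its reverse complement, the NRF1 motif and the YY1 motif.
Mrps6 (chr16:92058216-92058365, plus strand): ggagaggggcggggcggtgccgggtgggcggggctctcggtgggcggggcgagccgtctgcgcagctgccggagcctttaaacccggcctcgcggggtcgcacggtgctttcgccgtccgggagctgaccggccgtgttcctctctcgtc
Mrps18b (chr17:35916411-35916560, minus strand): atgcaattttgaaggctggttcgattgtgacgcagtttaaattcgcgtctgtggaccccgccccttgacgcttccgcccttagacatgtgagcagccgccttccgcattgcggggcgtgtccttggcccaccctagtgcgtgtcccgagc
Mrpl9 (chr3:94443216-94443365, plus strand): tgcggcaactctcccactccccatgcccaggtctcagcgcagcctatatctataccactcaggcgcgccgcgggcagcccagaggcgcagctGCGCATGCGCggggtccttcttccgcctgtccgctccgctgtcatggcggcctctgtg
Mrps27 (chr13:99344666-99344815, plus strand): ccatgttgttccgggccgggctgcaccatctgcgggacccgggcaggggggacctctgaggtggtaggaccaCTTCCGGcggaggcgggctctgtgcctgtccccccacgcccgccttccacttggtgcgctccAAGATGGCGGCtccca
Mrps18a (chr17:46110884-46111033, plus strand): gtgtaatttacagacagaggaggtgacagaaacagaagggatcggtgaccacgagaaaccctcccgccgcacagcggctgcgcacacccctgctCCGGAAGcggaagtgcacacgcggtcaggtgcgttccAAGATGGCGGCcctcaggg
Mrpl52 (chr14:54426789-54426938, plus strand): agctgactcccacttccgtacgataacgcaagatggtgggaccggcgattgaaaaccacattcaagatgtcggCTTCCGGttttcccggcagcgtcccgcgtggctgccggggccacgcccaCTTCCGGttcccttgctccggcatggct
The largest rise, Mrps6, had none of these motifs in its window, and Mrps18b had CCGGAAG only beyond the bases shown, in reverse complement from position 44 after the start. Mrpl9 had the NRF1 motif from position -28. The same pair of motifs, CCGGAAG and the YY1 motif, stood in Mrps27, which rose, and in Mrps18a, which did not pass. Mrpl52 held CCGGAAG at 2 places in reverse complement.

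Other genes of mitochondrial gene expression were followed in lists. Of the 5 further mitochondrial ribosomal proteins whose symbols lack Mrp, 1 rose: Ptcd3, an RNA-binding protein of the small subunit, at 45.7 ± 0.91 CPM in PDGF-DD and 35.1 ± 1.70 CPM in control cells (SD, n = 3 each; log2 fold change 0.38, edgeR adjusted p = 2.61e-06). Aurkaip1, the most abundant of them by TPM, was at 47.5 ± 4.12 CPM in PDGF-DD and 51.2 ± 2.66 CPM in control cells and did not pass. Without PDGF-DD replicate 2 it passed as lower (edgeR adjusted p = 0.0449). Of 26 tested assembly factors and ribosomal RNA modifiers 5 rose and 0 fell (edgeR; 1 fell at an unadjusted p under 0.05 and 0 in DESeq2). That is 19.2%, at the background of 19.1%. The median log2 fold change was 0.11. Gtpbp10 and Noa1, GTPases of ribosome assembly, and Rcc1l rose by log2 fold changes of 0.34, 0.29 and 0.25. Mpv17l2, the most abundant by TPM, was at -0.09. The count that rose was 3 in DESeq2 and without control replicate 2.

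Of 16 tested translation factors 3 rose and 0 fell (edgeR; 1 at an unadjusted p under 0.05, 0 in DESeq2 and 2 without control replicate 3), with a median log2 fold change of 0.03. The share of 18.8% is at the background of 19.1%. The 3 were Tufm, the elongation factor that delivers transfer RNAs, at 95.7 ± 1.51 CPM in PDGF-DD and 78.8 ± 1.64 CPM in control cells, Lrpprc, which stabilises mitochondrial messages, at 66.9 ± 1.44 CPM in PDGF-DD and 56.8 ± 1.29 CPM in control cells, and Gfm1, a translocation factor. The Gfm1 call (adjusted p = 0.0256) was lost under 6 of 12 alternatives, with adjusted p up to 0.13. Slirp, the partner of Lrpprc and the most abundant of the list by TPM, was at 20.8 ± 0.10 CPM in PDGF-DD and 20.6 ± 3.90 CPM in control cells. Of 20 mitochondrial aminoacyl-tRNA synthetases and amidotransferase subunits 5 rose and 0 fell (0 at an unadjusted p under 0.05 and 0 in DESeq2), with 25% higher and a median of 0.09. Tars2, Yars2 and Mars2, the synthetases for threonine, tyrosine and methionine, rose by 0.23, 0.28 and 0.28 on the log2 scale. The Mars2 call (edgeR adjusted p = 0.0248) was lost under 5 of 12 alternatives, with adjusted p up to 0.172, and the Yars2 call without control replicate 2 (0.0726) or 3 (0.0523). The count that rose was 1 without control replicate 2 or 3, 2 in DESeq2 and without PDGF-DD replicate 1 or 3, and 3 without PDGF-DD replicate 2. Iars2, the most abundant of the list, was at 98.5 ± 1.72 CPM in PDGF-DD and 95.7 ± 1.93 CPM in control cells.

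Of 19 genes of mitochondrial DNA and RNA synthesis and processing 10 rose and 0 fell (0 at an unadjusted p under 0.05 and 0 in DESeq2), with 52.6% higher and a median of 0.15. The background for this list and the next was 19.1% of all tested genes higher and 17.4% lower, or 15.4% and 13% in DESeq2. Tbrg4 and Fastkd5, of a family of mitochondrial RNA-binding proteins, rose by log2 fold changes of 0.25 and 0.33, and Elac2, which trims the ends of transfer RNAs, rose by 0.29 (adjusted p in edgeR = 0.000154, 0.00112 and 0.000364). Hsd17b10, a subunit of mitochondrial RNase P and the most abundant of the list by TPM, was at 41.2 ± 1.32 CPM in PDGF-DD and 39.9 ± 4.50 CPM in control cells and did not pass. Of 9 tested regulators of mitochondrial biogenesis 4 rose and 0 fell (0 at an unadjusted p under 0.05 and 0 in DESeq2), with 44.4% higher and a median of 0.16. The transcription factor gene Myc rose by 0.50, Pprc1, a coactivator related to PGC-1, by 0.20 and Gabpb1, a subunit of the ETS factor GABP, by 0.16. Esrra was the other that rose, by 0.19. Gabpa, Nrf1 and Yy1 did not pass, at log2 fold changes of 0.02, 0.07 and 0.10 (edgeR adjusted p = 0.792, 0.412 and 0.0792). Gabpb2 and Ppargc1b did not pass either, at -0.06 and 0.26. The Gabpb1 call (adjusted p = 0.0263) was lost under 5 of 12 alternatives, with adjusted p up to 0.113 without control replicate 2, and the count that rose was 2 in DESeq2 and without control replicate 2 or PDGF-DD replicate 2.

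Cytosolic ribosomal proteins and respiratory chain subunits had medians near the background, and with all libraries the shares called lay below it. Over all tested genes 19.1% were called higher and 17.4% lower, and 19.8% and 17.8% without control replicate 1. Of 83 tested cytosolic ribosomal protein genes 1 rose and 0 fell (0 at an unadjusted p under 0.05 and 0 in DESeq2), with a median log2 fold change of -0.02. The gene that rose was Rpl7l1, a paralogue of a ribosomal protein gene. Without control replicate 1, 21 rose with a median of 0.07, and 3 or 4 fell without control replicate 2 or 3. Of 78 tested nuclear subunits of oxidative phosphorylation 1 rose (Sdhd) and 2 fell (Cox7a2l and Ndufa6), with a median of -0.01. The Sdhd call (adjusted p = 0.0267) was lost under 5 of 12 alternatives, DESeq2 among them (0.07), with adjusted p up to 0.154. Atp5b, the most abundant, was at 879.7 ± 31.0 CPM in PDGF-DD and 842 ± 27.2 CPM in control cells. Here too, without control replicate 1, 18 rose and 2 fell with a median of 0.07. Without control replicate 3, 6 of them fell. Mitochondrial ribosomal protein genes had 37.2% called higher in the comparison of all libraries, against 1.2% of cytosolic ribosomal protein genes and 1.28% of respiratory chain genes, and the difference between lists was not tested. The lists were not matched for transcript length. Implied lengths reached from 363 to 6662 bases in members, 274 to 5087 in cytosolic ribosomal protein genes and 271 to 2810 in respiratory chain genes.

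**Figure D5:**
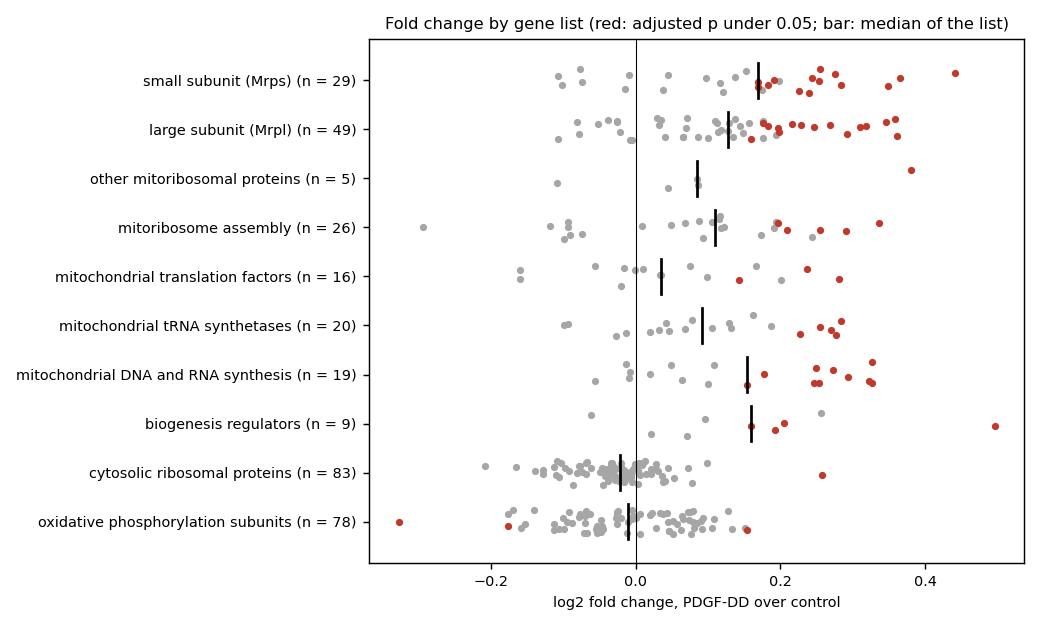
Log2 fold change (PDGF-DD over control, horizontal axis) of each tested gene in 10 lists, with red for an adjusted p under 0.05 and a bar for the list median; vertical scatter within a row has no meaning. The medians are 0.17 and 0.13 for the small and large subunit, -0.02 for cytosolic ribosomal proteins and -0.01 for oxidative phosphorylation subunits.

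Markers of other cell types were detected beside those of fibroblasts, and some of both changed. The 8 fibroblast markers summed to between 29281 and 30184 CPM in the PDGF-DD libraries, against 32838 to 34281 CPM in the control libraries. Most of that sum was Col1a1 and Col1a2, the collagen genes. Of the 8 fibroblast markers 1 rose (12.5%) and 5 fell (62.5%), against a background of 19.1% of tested genes higher and 17.4% lower. The 8 cardiomyocyte markers summed to between 119 and 133 CPM in the PDGF-DD libraries, against 163 to 174 CPM in the control libraries. Of 7 tested, 3 fell (42.9%, and 2 in DESeq2 and without control replicate 1). The Ryr2 call (adjusted p = 0.0485) was lost under 9 of 12 alternatives. Most of the sum was Tnnt2, at 115 CPM in PDGF-DD and 156 CPM in control cells, against 86.4 CPM in PDGF-DD and 131 CPM in control cells for the fibroblast marker Tcf21, and the other defining genes were at 5.77 CPM or below in both groups. The 6 endothelial markers summed to between 203 and 211 CPM in PDGF-DD and 221 to 237 CPM in control libraries. Of these 1 fell (16.7%), close to the background. The 6 macrophage markers summed to between 59.2 and 63.8 CPM in PDGF-DD and 64.8 to 69.5 CPM in control libraries. None of the macrophage markers was called, with 2 lower at an unadjusted p under 0.05 and 0 in DESeq2. The 5 mural markers summed to between 143 and 148 CPM in PDGF-DD and 132 to 147 CPM in control libraries. Of 4 tested, 1 was higher (25%) and 2 were lower (50%). Most of the mural sum was Cspg4, which rose, at 128 CPM in PDGF-DD and 108 CPM in control cells. Myh11 fell and was at 12.0 CPM in PDGF-DD and 24.5 CPM in control cells. The part of these cells in the values above was not tested.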

How the data were processed

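The submitters' processing notes list RSEM 1.2.12, Bowtie2 2.2.5, HISAT2 2.0.4, DESeq2 1.4.5 and the mm9 build, with no role for any. How strand, annotation and read filters were handled is not given in the sources used here. The authors deposited, per the file headers, estimated counts per gene without normalization, FPKM values (scaled by the authors to transcript length and depth) and TPM values (scaled by the authors to 1 total per library).

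Estimated counts were rounded, filtered with filterByExpr (13270 genes kept), scaled with TMM and compared with edgeR 4.0.16 (quasi-likelihood F test, robust, two-sided, R 4.3.3), PDGF-DD over control, with Benjamini-Hochberg adjustment over all tested genes. DESeq2 1.42.0 was an alternative. A standard error is the fold change divided by the square root of F. Depth of at least 21221114 counts per library left the lowest member count at 172, and the common biological coefficient of variation was 3.96%. Implied length is the count divided by library size and FPKM, for FPKM above 1.

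Members and lists were chosen with earlier results of these data known. Members named are the 8 largest rises, the 6 smallest p-values, the 4 most and 2 least abundant, the Mrps18 paralogues, Mrps30, Mrps36, Mrpl12 and Mrpl32. From other lists, the genes named are the one with the highest TPM and up to 3 called genes, by smallest p. For cell type markers only some of these are named. Other genes named (further calls, the lowest estimates, regulators that did not pass, overlapping neighbours and members in promoter sequences) were chosen after their values were seen. Of the listed genes, Trmt61b and Mtrfr were not matched to the tables.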

Additional observations from a re-analysis of the deposited data

How the results depend on the processing

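Under the 12 alternatives run on all members, 18 of the 29 calls held in each, 46 members rose and 0 fell under at least 1, and 32 were never called. Leaving out 1 library gave 21 to 43 members higher (0 lower, medians 0.11 to 0.20), 10 to 24 large subunit members (medians 0.08 to 0.16) and 11 to 19 small subunit members (medians 0.14 to 0.22). Large subunit members that rose numbered 24 without control replicate 1. Without members that share exon bases with another gene, an alternative chosen after seeing the data, 19 of 62 members and 9 of 37 large subunit members rose. The background was 19.1% of all tested genes called higher, and 10 of the 16 left out had been called. Leaving out 1 library gave 2147 to 2643 genes higher and 1729 to 2374 lower over the whole table. Rplp1, the most abundant cytosolic ribosomal protein gene by TPM, was at -0.04 on the log2 scale and passed as higher at 0.10 without control replicate 1 (adjusted p = 0.0371, against 0.85 with all libraries), and its lowest value was -0.12 without control replicate 3.

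Libraries with the same replicate number in their titles showed no shared deviation, with correlations of -0.07, -0.09 and -0.03. Such values cannot tell whether these libraries came from the same culture or batch. With the replicate block 14 large and 12 small subunit members rose and 0 fell, of 2269 genes higher and 2076 lower. At this depth members not called have 95% intervals that reach from -0.39 to 0.37 on the log2 scale.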
